A study of Mus musculus with 15 samples.

Results

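The regions described here are the widest stretches of open chromatin in microglia of juvenile wild-type mice, the resident macrophages of the brain. In each of the 2 peak lists of wild-type (WT) microglia at postnatal day 14 (P14), the 1000 widest unique peak intervals on chromosomes 1 to 19 and X were taken, and the intervals of replicate 1 that overlapped one of replicate 2 were kept. This gave 610 domains out of 109389 unique intervals in replicate 1, or 0.558%, while the other 390 of its 1000 widest intervals had no partner. The domains were thus chosen by their widths in WT P14, and these widths are given as a description without a test, as is every comparison that uses WT P14. Of the rejected intervals, the widest lay at Bach2 (2044 bp), Bicral, Lemd3, Ppp1r9a and Eapp. The 5 narrowest domains lay at Dvl1, Synj1, Zdhhc2, Tmem164 and Mtap, with widths of 1226 to 1229 bp, and the 5 intervals just outside the limit of 1000, at Dctn1, Ncapd2, Fut4, Smarca4 and Lpin1, were each 1226 bp wide.

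The assay was ATAC-seq, which maps DNA that a transposase can reach, on FACS-sorted microglia of C57BL/6 mice that had been isolated without enzymes. The 15 libraries fell into 7 groups. At P9 there were 2 libraries of WT and 3 of IRF8KO mice, and at P14 there were 2 of WT and 2 of IRF8KO mice, all without treatment. At 10 months there were 2 libraries of WT and 4 of 5xFAD mice, and all of these mice received methoxy-X04, a dye that binds amyloid and by which the 5xFAD microglia were sorted into X04 negative (2 libraries) and X04 positive (2 libraries). IRF8 is a DNA-binding factor needed for normal development of myeloid cells, and 5xFAD mice carry mutant human transgenes under the neuronal Thy1 promoter and form amyloid plaques. The labels do not say how the IRF8KO allele was made or whether replicates are separate animals, so a p-value here covers the spread between libraries, which may be technical.

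Most broad accessible regions of mammalian cells lie over CpG island promoters. In these promoters CpG dinucleotides have been kept because they are mostly unmethylated, nucleosomes are displaced over a long stretch, and transcription often starts at several positions and in both directions. Such promoters mainly serve genes used in many cell types, whereas genes particular to microglia are controlled in large part by narrower enhancers bound by factors such as PU.1, SALL1 and IRF8. A peak caller can report several summits, the local maxima of the cut density, inside one interval.

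Start sequences of 6 domains show the range of sequence found under them. Each is the 250 bases before a listed RefSeq transcription start (GRCm38.p6, the assembly behind mm10), 5′ to 3′ on the strand of the gene, with every CpG in capitals. App (chr16:85173708-85173957, minus strand), the amyloid precursor gene, is among the 15 widest and holds 23 CpG. Tcf12 (chr9:72111820-72112069, minus strand), a helix-loop-helix transcription factor, is wider in IRF8KO at P9 below and holds 38. Npnt (chr3:132950292-132950541, minus strand, 21 CpG), Kcnma1 (chr14:24004206-24004455, minus strand, 31 CpG) and Raet1e (chr10:22158319-22158568, plus strand, 16 CpG) are 3 of the domains most reduced in IRF8KO at P9. Casp1 (chr9:5298267-5298516, plus strand), which encodes the inflammatory caspase-1, is one of the few domain starts poor in CpG and holds 1.
App: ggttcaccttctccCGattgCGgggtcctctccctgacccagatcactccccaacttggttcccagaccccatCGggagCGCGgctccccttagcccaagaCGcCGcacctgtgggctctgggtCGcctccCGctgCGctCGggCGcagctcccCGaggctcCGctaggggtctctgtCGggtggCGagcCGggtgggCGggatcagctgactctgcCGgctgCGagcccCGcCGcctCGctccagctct
Tcf12: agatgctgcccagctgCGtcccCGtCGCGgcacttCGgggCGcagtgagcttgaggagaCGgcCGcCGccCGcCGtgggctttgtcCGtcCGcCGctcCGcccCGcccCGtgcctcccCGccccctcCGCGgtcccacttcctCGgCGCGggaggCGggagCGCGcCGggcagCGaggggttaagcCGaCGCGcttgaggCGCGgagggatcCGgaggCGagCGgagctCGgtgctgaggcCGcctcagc
Npnt: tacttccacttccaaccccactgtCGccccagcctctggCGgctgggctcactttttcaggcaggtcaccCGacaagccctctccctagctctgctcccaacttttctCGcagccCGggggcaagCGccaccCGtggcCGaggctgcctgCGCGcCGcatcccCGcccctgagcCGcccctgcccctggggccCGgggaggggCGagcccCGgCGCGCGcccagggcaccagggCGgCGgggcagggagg
Kcnma1: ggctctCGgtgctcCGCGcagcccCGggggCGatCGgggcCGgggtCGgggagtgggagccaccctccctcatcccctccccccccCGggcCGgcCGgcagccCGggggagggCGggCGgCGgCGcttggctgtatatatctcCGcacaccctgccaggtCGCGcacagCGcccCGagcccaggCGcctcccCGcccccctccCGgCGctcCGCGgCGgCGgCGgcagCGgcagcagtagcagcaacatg
Raet1e: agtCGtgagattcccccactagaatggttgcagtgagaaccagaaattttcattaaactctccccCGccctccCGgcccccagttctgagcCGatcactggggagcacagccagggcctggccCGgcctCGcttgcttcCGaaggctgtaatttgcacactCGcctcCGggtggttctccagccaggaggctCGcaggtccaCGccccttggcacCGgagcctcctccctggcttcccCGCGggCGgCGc
Casp1: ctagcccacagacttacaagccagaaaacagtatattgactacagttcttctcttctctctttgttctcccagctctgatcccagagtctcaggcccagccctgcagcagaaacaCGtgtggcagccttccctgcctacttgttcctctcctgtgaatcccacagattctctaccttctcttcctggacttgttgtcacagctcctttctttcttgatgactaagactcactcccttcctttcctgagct

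The domains lay mainly over transcription starts, and the starts were rich in CpG. A listed start fell in 433 domains (71.0%), against 9.58% of all intervals of the same library. Another 104 domains held only the end or an unlisted start of a gene body, 47 lay inside a gene and 26 between genes. No start windows of chromosome 18 were used here, and without its 30 domains the share with a start was 74.7% of 580, against 9.89% of all intervals. Among intervals past rank 1000 and up to rank 5000 in width that share was 61.8%, and from there to rank 20000 it was 31.3%, so the share with a start was higher at each step toward wider intervals. Starts on both strands were found in 109 domains, 25.2% of the domains with a start, against 13.4% of all intervals with a start. At least 2 starts lay in 159 domains and at most 6 in one. A wider interval has more room for starts and for both strands, and the part of width in these shares was not tested. In the domains with a start, the strongest summit lay a median of 88 bp from the nearest start, and within 250 bp in 314 of the 433.

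The 663 start windows in domains, each 300 bases long from 250 before to 50 after the start, held a median of 30 CpG (interquartile range 22 to 39) and a median of 69% G and C. The median was 25 CpG for starts in intervals past width rank 1000 and up to 5000, 21 from there to rank 20000, 13 for narrower intervals and 4 for starts under no interval. Short motifs were searched on both strands of these windows and of all 32619 listed windows. The GC box GGGCGG was found in 78.0% of domain windows and in 35.9% of all windows, and the E-box CACGTG in 13.1% and 7.20%. The GC box was also found in 65.4% of the windows whose start lay in any interval, so much of this contrast goes with the start being open at all. The E-box was found in 10.6% of those windows. The core of the NRF1 motif, GCATGCGC, was present in 5.28% of domain windows, 2.72% of all windows and 5.43% of those whose start lay in any interval. The TATA box TATAAA was found in 3.77% of domain windows, 6.41% of windows with an open start and 13.7% of all windows, and the AP-1 motif TGANTCA in 3.02%, 4.47% and 7.85%, so most of both contrasts was already present between open and all starts. The CCAAT box (CCAAT) was found in 26.4%, 38.1% and 37.6% in the same order. The IRF core AANNGAAA was found in 9.50%, 17.2% and 23.9%, and a PU.1 motif, GAGGAAGT, in 3.02%, 3.66% and 3.22%. Starts in intervals past width rank 1000 and up to 5000 were often close to the domains. There the GC box was found in 73.1%, the TATA box in 4.37%, AP-1 in 3.26% and PU.1 in 2.98% of windows. The E-box was found in 10.4%, NRF1 in 7.32%, the CCAAT box in 34.5% and the IRF core in 13.6%. The letters of one motif can lie inside another or inside CpG-rich sequence, and a match is not a bound site.

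**Figure D1:**
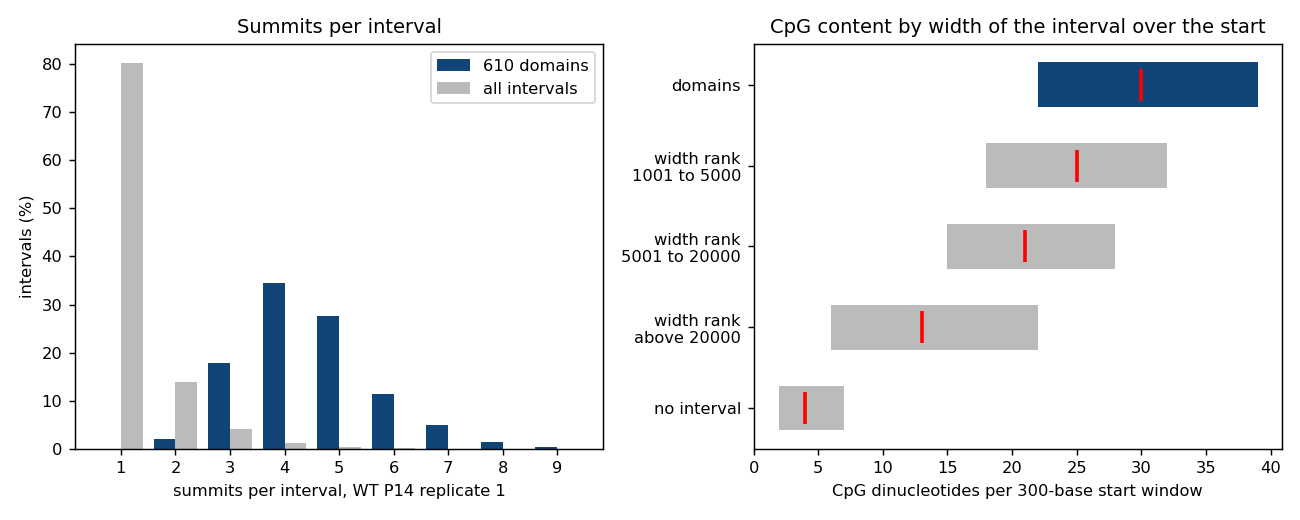
Left, percent of intervals (y axis) by number of summits per interval (x axis) in WT P14 replicate 1, for the 610 domains (blue) and all 109389 intervals (grey). Right, number of CpG per 300-base start window (x axis; bar, 25th to 75th percentile; red line, median) by the width rank of the interval over the start: the median is 30 in domains and 4 where no interval covers the start.

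A domain was usually a row of several summits. The count ran from 2 to 9 with a median of 4, and 210 domains had 4 summits, 168 had 5, 109 had 3 and 70 had 6. At least 4 summits were present in 80.2% of domains against 1.77% of all intervals, of which 80.2% had a single one. Width chose the domains and wide intervals have room for more summits, so this contrast is a description. The spacing between neighbouring summits was much the same in both: its median was 265 bp in domains (interquartile range 226 to 349) and 253 bp in all intervals (224 to 299). The strongest summit lay at a median of 0.489 of the way along the domain, where 0 is its start and 1 its end.

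The domains were stronger than most intervals but were not the strongest. The −log10 p that the authors' peak caller gave the strongest summit had a median of 110 in domains (range 7.93 to 935) and 20.2 in all intervals, and the median strength rank of a domain was 15509.5 of 109389. Across all intervals width and strength went together (Spearman rho 0.79), a correlation across regions of 1 library that share its depth and base composition.

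The 15 widest domains follow in order of width. The first, 2925 bp with 8 summits, was at the predicted gene Gm20783 (chr9:124422862-124425786, mm10). The next was 2268 bp at Nsd1 (chr13:55210501-55212768), a histone H3 lysine 36 methyltransferase, inside the gene body and with 9 summits. Cul1, the scaffold of the SCF ubiquitin ligases, had 2193 bp and 9 summits (chr6:47453497-47455689), and Rdh10, a retinol dehydrogenase of retinoic acid synthesis, 2190 bp. Zbtb10, a zinc finger protein, had 2147 bp, Kmt2c, a histone H3 lysine 4 methyltransferase, 2141 bp and Hsp90ab1, the constitutive HSP90 chaperone, 2129 bp. Fbxl17, an F-box protein, had 2059 bp, and App had 2035 bp and 8 summits. Dipk2a, Rab11a (recycling endosomes), Atrnl1, Foxn2 (a forkhead factor), Tiparp (a poly-ADP-ribose polymerase) and Nr3c1 (the glucocorticoid receptor) completed the 15 widest, at 1987 to 2004 bp. In all, 603 genes were assigned a domain by overlap or proximity, Hdlbp, Nfia and Ube2r2 were assigned 2 domains each, and 4 domains had no protein-coding gene within 100 kb.

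Genes of the microglial, myeloid and other lists were then looked up. Overlapping, holding a start of, or nearest to a gene counted as a domain of it, which was the case for 698 of 21631 protein-coding genes (3.23%). Of 25 microglial identity genes 1 had a domain (4%, near the share over all genes): Sall3, whose domain lay 59.7 kb from the gene. The listed starts of 15 of 17 such genes were open in both WT P14 lists. Myeloid transcription factors had 3 of 26: Bhlhe41 (1648 bp), a helix-loop-helix repressor, and Etv6 (1450 bp) and Elf1 (1383 bp), both ETS factors. TGF-beta signalling had 2 of 17, Smad2 (1461 bp) and Smad7 (1319 bp), a signal transducer and an inhibitor of the pathway. A single gene had one among the 22 immediate early genes (Fosl2, an AP-1 subunit), 25 complement and phagocytosis genes (the IgG receptor Fcgr3), 22 inflammatory genes (the adhesion molecule Icam1), 20 lysosome genes (Ctsa, cathepsin A), 24 disease-associated microglia genes (Ch25h, cholesterol 25-hydroxylase) and 16 monocyte and neutrophil genes (Itga4, integrin alpha 4). The 19 interferon response, 16 antigen presentation and 20 cell cycle genes had 0, as did the lists for border-associated macrophages, lymphocytes, neurons, astrocytes, oligodendrocytes and endothelial and mural cells, 77 genes in all. With lists this small, the counts of 0 to 3 are only a description beside the background of 3.23%.

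Markers of other cells bear on what the lists hold. In both WT P14 lists the listed start was open for 0 of 11 lymphocyte genes, 3 of 11 neuron, 5 of 8 astrocyte, 1 of 8 oligodendrocyte, 2 of 9 endothelial and mural, 4 of 11 border-associated macrophage and 3 of 15 monocyte and neutrophil genes, against 9553 of 17274 genes with a listed start (55.3%). An open start is not expression, and the part of other cells in the results was not tested.

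Mature miRNAs lay in 8 domains. One of these is shown because it is a widely expressed member of the let-7 family: let-7i, in the 1390 bp domain nearest Mon2 (chr10:122985253-122986642), with the mature 5p arm at chr10:122985698-122985719 on the minus strand and its seed, bases 2 to 8, in capitals.
mmu-let-7i-5p: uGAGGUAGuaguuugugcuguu

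The domains were traced through the other libraries by the width of the widest interval overlapping each one and by the number of intervals that overlapped it, 2 or more of which make it split. In the WT P14 lists that chose them the median width was 1383 and 1411 bp, and replicate 2 split 27 of the 610. The 3 IRF8KO P9 libraries came nearest, with medians of 1355.5, 1351.5 and 1381.5 bp and 143, 139 and 114 domains split. The WT P9 libraries had 1257 and 1304 bp, with 209 and 175 split. Both IRF8KO P14 libraries lay below every P9 library, at 1062.5 and 1011.5 bp with 273 and 316 split. At 10 months the medians were 936 and 936.5 bp in WT, 932.5 and 824 bp in X04 negative and 576.5 and 584.5 bp in X04 positive 5xFAD microglia. The number split was 278 in each WT library, 292 and 322 in X04 negative and 307 and 305 in X04 positive. Nearly every domain still held a peak: at most 1 was without any in each of the first 6 groups, and 19 and 13 were without one in the X04 positive libraries.

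**Figure D2:**
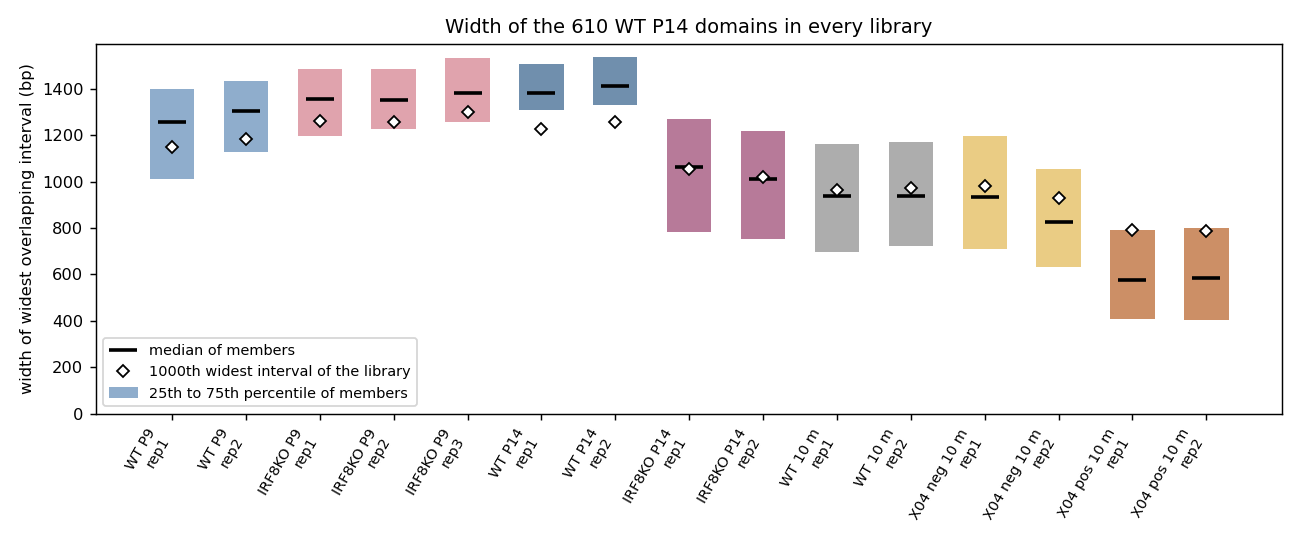
Width in bp (y axis) of the widest interval overlapping each of the 610 domains in every library (x axis). Boxes span the 25th to the 75th percentile, black lines are medians and diamonds mark the library's own 1000th widest interval: the medians exceed the diamond in the P9 and WT P14 libraries and lie below it in the 10-month ones.

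The strength of the libraries moved with these widths. The −log10 p of a library's 30000th strongest peak was 73.4 to 80.6 in IRF8KO P9, 61.8 to 68.2 in WT P14, 39.1 to 54.3 in WT P9, 22.8 to 26.6 in IRF8KO P14, 19.9 to 24.3 in X04 negative, 18.6 to 23.1 in WT at 10 months and 6.04 to 6.29 in X04 positive. Read depth was not given in the lists, so its part in the widths was not tested. Each domain was also placed among the widest intervals of each library's own list. The lists held 109389 to 189089 unique intervals, so the 1000 widest are a different share of each and the counts are a description. There were 400 and 423 domains among the 1000 widest intervals of the WT P9 libraries and 423, 429 and 413 of the IRF8KO P9 libraries. There were 319 and 300 in IRF8KO P14, 289 and 276 in WT at 10 months, 279 and 235 in X04 negative and 154 and 160 in X04 positive. The P9 groups overlapped on this count.

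**Figure D3:**
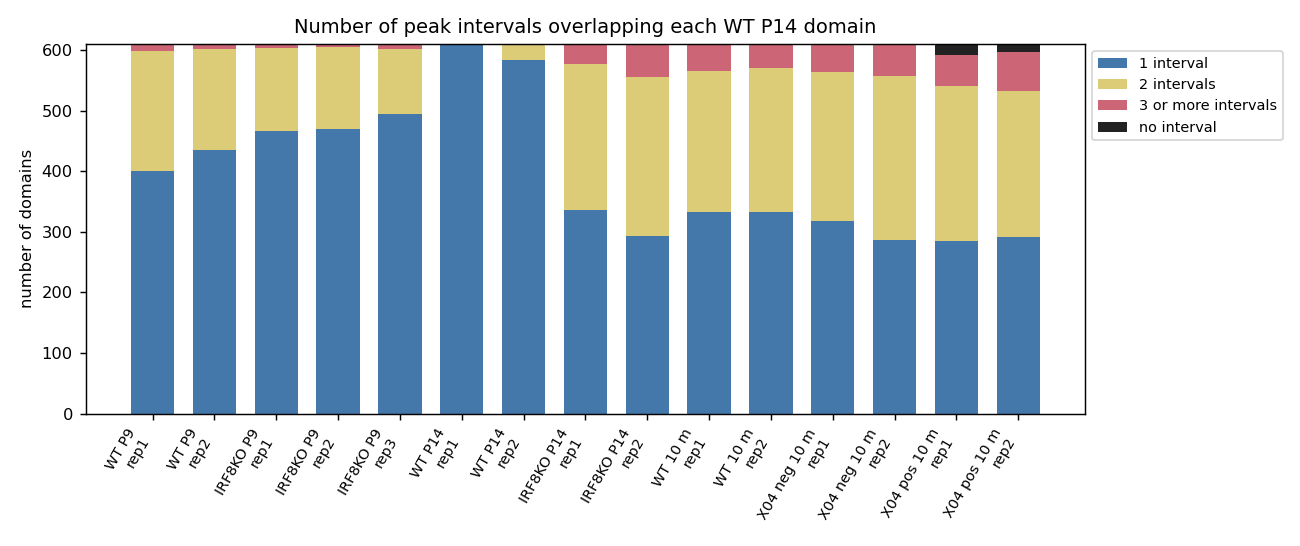
Number of domains (y axis) overlapped by 1, by 2, by 3 or more or by no interval in each library (x axis). WT P14 replicate 1 has all 610 under 1 interval by the choice of the domains; outside WT P14 the fewest are split in IRF8KO P9 (114 to 143), and 273 to 322 are split from IRF8KO P14 onward.

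A small core stayed wide throughout. In all 13 libraries outside WT P14, 24 domains were among the 1000 widest, 20 of them with a listed start. They included Gsk3b (glycogen synthase kinase 3 beta), Hdac2 (a histone deacetylase), Setd5, Syncrip (an RNA-binding protein), Sertad2, Tdrd3 and Elf1. The Elf1 domain was 1 interval in every library: 1345 and 1338 bp in WT P9, 1453, 1460 and 1455 bp in IRF8KO P9, 1338 and 1159 bp in IRF8KO P14, 1358 and 1335 bp in WT at 10 months, 1346 and 1333 bp in X04 negative and 1367 and 1104 bp in X04 positive. The Myo3a domain kept 1597 to 1614 bp in 12 of the 13 and was split, at 1080 bp, in IRF8KO P14 replicate 2. It lay inside the gene without a listed start and had the highest −log10 p of all domains, 935 in WT P14 replicate 1. What sets its nearly constant width was not tested. In contrast, 17 domains were among the 1000 widest in none of the 13, among them Ddhd1, Ptprm, Slc24a3, Mtss1, Sap30 (a histone deacetylase complex subunit), Usp37 and Stk17b. The Sap30 domain, 1270 and 1276 bp in WT P14, measured 579 to 814 bp everywhere else. Domains whole in all 13 numbered 28, and 4 were split in all 13.

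The targeted gene comes first in the genotype comparison. The widest interval over Irf8, which is no member, was 625 and 762 bp in WT P9, 957, 1052 and 674 bp in IRF8KO P9, 695 and 658 bp in WT P14 and 675 and 822 bp in IRF8KO P14. Open chromatin over the locus does not show whether the protein is made, so this does not check the genotype. Sall1, the transcription factor that holds microglial identity, narrowly missed the list: its interval ranked 727 in WT P14 replicate 1 and 1244 in replicate 2. The widest interval over Sall1 was 1204 and 1276 bp in WT P9 against 268, 215 and 328 bp in IRF8KO P9, and 1286 and 1212 bp in WT P14 against 291 and 301 bp in IRF8KO P14. At 10 months it measured 710 and 636 bp in WT, 757 and 799 bp in X04 negative and 600 and 643 bp in X04 positive. The groups did not overlap at either age.

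At P9, few domains differed in width between IRF8KO and WT. Widths were compared by limma on log2(width + 100 bp), each library centred on its median, with Benjamini-Hochberg adjustment over 96939 tested intervals. Of 610 domains, 22 passed an adjusted p of 0.05 (3.61%), 9 narrower and 13 wider in IRF8KO, while 12.1% of all tested intervals passed, 7.12% narrower and 5.02% wider. These shares were closer to each other among intervals overlapped in all 5 libraries, where 11 of 609 domains passed (1.81%) against 2.18% of all. These were 5 narrower ones, against 0.839% of all, and 6 wider ones, against 1.34%. The median difference was −0.07 on the log2 scale over domains and −0.04 over all intervals. Without centring, the domains that passed were 6 narrower and 28 wider, and without WT P9 replicate 1 or replicate 2 they were 4 and 8, or 16 and 24. Without IRF8KO replicate 3 they were 8 and 8, and with the total covered length in place of the widest interval 3 and 10. Only 4 of the 22 domains of the main test were among those that passed with covered length.

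In the 4 domains with the largest reduction, the widest interval left in IRF8KO was short or none was listed. Slc14a1, a urea transporter, had a domain of 1210 and 1180 bp in WT P9 and of 249, 263 and 284 bp in IRF8KO P9 (log2 difference −1.96, SE 0.07, limma adjusted p = 0.00251), although the difference in covered length, −1.36, did not pass. It measured 1234 and 1292 bp in WT P14 and had no interval in either IRF8KO P14 library. At 10 months it was 503 and 728 bp in WT, 1058 and 998 bp in X04 negative and 228 and 343 bp in X04 positive. At P9 all IRF8KO values of Slc14a1 thus lay below both WT values. The same held at P14, as it did for 84.8% of the domains. WT P14 widths chose the domains, so the P14 values add no support.

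Npnt, which encodes the integrin ligand nephronectin, measured 1226 and 1354 bp in WT P9 against 414, 198 and 312 bp in IRF8KO P9 (log2 difference −1.93, SE 0.24, limma adjusted p = 0.0104). Its values were 1299 and 1364 bp in WT P14 and 425 and 185 bp in IRF8KO P14, and 523 to 963 bp in the 6 libraries at 10 months. Kcnma1, the pore subunit of the BK potassium channel, had 813 and 928 bp in WT P9 and 155, 0 and 0 bp in IRF8KO P9 (log2 difference −2.96, SE 0.50, limma adjusted p = 0.0275), where 0 means that no interval was listed. With 2 of 3 values at 0 the size of this difference is set by the pseudocount: it was −5.27 with 10 bp, which did not pass the test, and −1.85 with 300 bp. The start window printed above lies in this domain, which was 1343 and 1273 bp in WT P14 and 330 and 234 bp in IRF8KO P14. Raet1e, a ligand of the NKG2D receptor, had 888 and 1533 bp in WT P9 and 288, 458 and 451 bp in IRF8KO P9 (log2 difference −1.50, SE 0.28, limma adjusted p = 0.0374). It was the domain in most pieces in IRF8KO P9, with 4, 3 and 3 intervals, and by the total length these covered the difference was −0.24 and did not pass the test. The next most split there were Gm20783 (1, 3 and 3 intervals), Zbtb10 (2, 2 and 3), Fbxl17 (2, 2 and 3) and Kctd1 (3, 2 and 2).

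**Figure D4:**
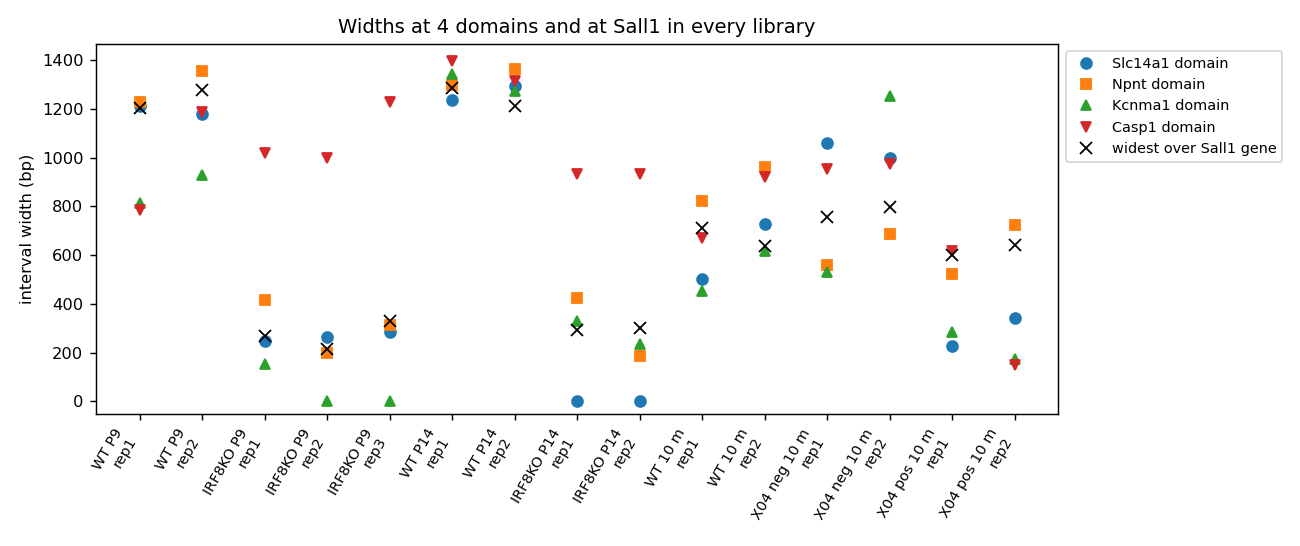
Interval width in bp (y axis; 0, no interval listed) of the Slc14a1, Npnt, Kcnma1 and Casp1 domains and of the widest interval over the Sall1 gene in every library (x axis). Slc14a1, Npnt, Kcnma1 and Sall1 lie at or below 425 bp in all 5 IRF8KO libraries, while Casp1 lies at 932 to 1229 bp there.

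The other 5 narrower domains changed less. They were Tnks1bp1 (log2 difference −0.73), Rmc1 (−0.54), Egfl6 (−0.45), Zswim6 (−0.33) and Rapgef5 (−0.31, a guanine exchange factor for Rap GTPases). The Tnks1bp1 domain was 1 interval of 1179 and 1216 bp in WT P9 and 2 intervals, the wider of 736, 694 and 850 bp, in IRF8KO P9. At P14 all 9 were narrower in both IRF8KO libraries than in both WT libraries, but so were 517 of the 610 domains (84.8%) and 56.0% of all intervals. The domains were chosen by their width in WT P14, so the P14 values add no support to the P9 calls.

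Of the 13 wider domains, 12 were split in both WT P9 libraries and 12 were a single interval in all 3 IRF8KO P9 libraries. Over all 610 domains these numbers were 104 and 372. Width is that of the widest single interval, so joining pieces raises it by definition. The pattern is thus only a description. Chd7, a chromatin remodeller, measured 705 and 610 bp in WT P9 and 1413, 1426 and 1441 bp in IRF8KO P9 (log2 difference 0.88, SE 0.09, limma adjusted p = 0.00516). By the total length covered, the Chd7 difference was 0.16 and did not pass the test. None of the 12 domains at list genes named above passed, with limma adjusted p from 0.254 to 0.882.

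Tcf12 measured 828 and 881 bp in WT P9 and 1703, 1514 and 1413 bp in IRF8KO P9 (log2 difference 0.65). Ednrb, an endothelin receptor, measured 884 and 961 bp against 1518, 1443 and 1421 bp (0.48). Others were Cmtm4 (0.74), Ptp4a3 (0.71, a phosphatase), Epb41l3 (0.69, a membrane skeleton protein), Tmem198b (0.67), Pyroxd2 (0.57), Otulinl (0.47), Nup153 (0.37, a nuclear pore protein) and Gm41408 (0.36). By covered length the difference was 0.07 for Tcf12 and 0.12 for Ednrb, and neither passed. Pyroxd2 still passed by covered length, at 0.11. At P14 all 13 were narrower in both IRF8KO than in both WT libraries, as were 84.8% of all domains, and nothing is read from this because WT P14 widths chose the domains. At P9 the IRF8KO libraries were the stronger ones and at P14 the weaker ones, as given above, and the part of library strength was not tested.

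**Figure D5:**
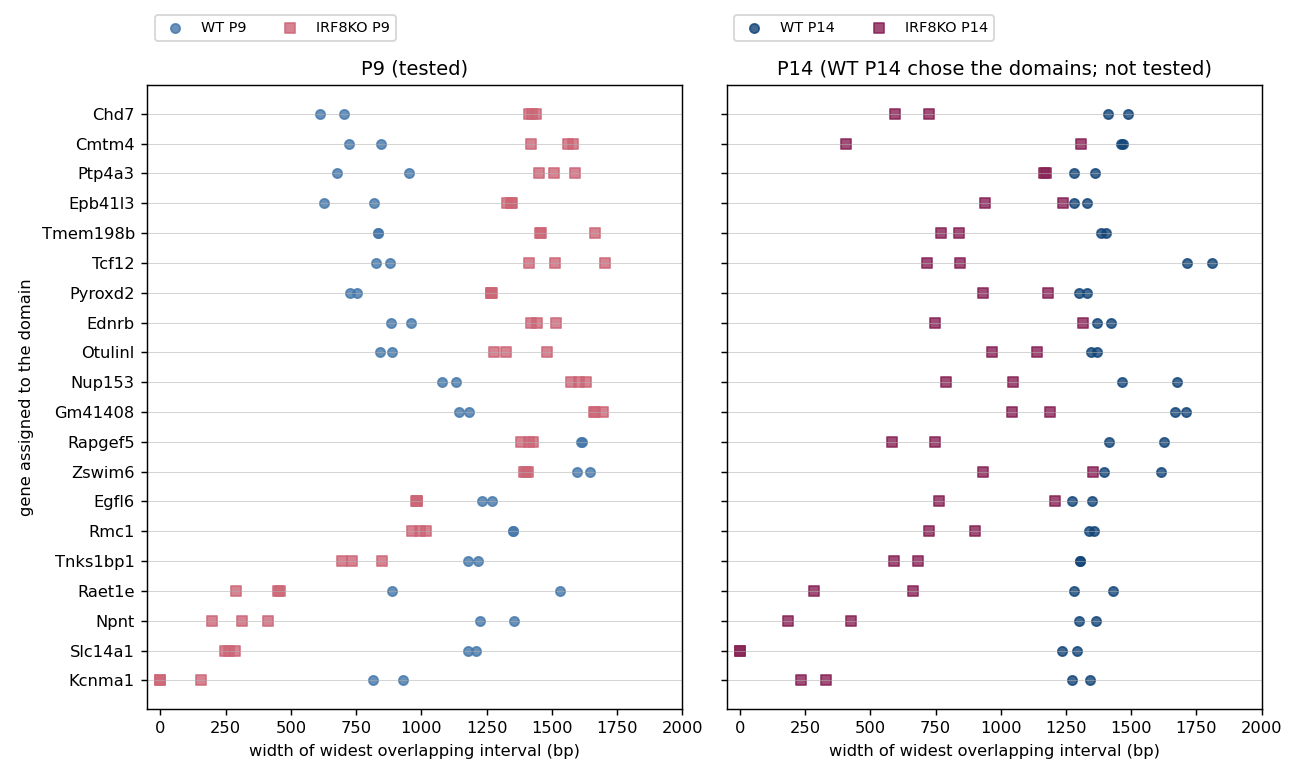
Width in bp (x axis) of the widest interval overlapping each of 20 of the 22 domains that passed the P9 test (y axis, by assigned gene), one point per library, at P9 (left) and at P14 (right, not tested). The 11 domains from Chd7 to Gm41408 are wider in IRF8KO at P9 and the 9 from Rapgef5 to Kcnma1 narrower; at P14 all 20 are narrower, as are 84.8% of the 610 domains.

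Counts of domains whose groups did not overlap were as follows. At P9, 170 domains (27.9%) were wider in all 3 IRF8KO libraries than in both WT libraries, against 30.1% of all tested intervals, and 38 (6.23%) were narrower, against 16.3%. At P14, 517 (84.8%) were narrower in both IRF8KO libraries, against 56.0% of all intervals, and 3 (0.492%) were wider, against 7.7%. The P14 counts start from regions chosen for their width in WT P14 and nothing is read from them. Of the domains, 36 were narrower at both ages, 2 were wider at both, and 145 were wider at P9 and narrower at P14. These counts use the P14 widths as well and were not made over all intervals, so nothing is read from them either. The WT libraries of P9 shared 562 of their own 1000 widest intervals, of which 322 (57.3%) overlapped a domain, covering 52.8% of the domains. The 3 IRF8KO P9 libraries shared 447, of which 299 (66.9%) overlapped a domain, covering 49.0% of the domains.

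The few domain starts poor in CpG were described apart. In 13 of the 433 domains with a start, every start window held fewer than 10 CpG. These included Casp1, Vamp8 (a SNARE protein), Scyl3, Slc37a2, Mdfic, Rnf146 and H2-M3 (a nonclassical MHC class I gene). In the WT P9 libraries 61.5% to 69.2% of the 13 were among the 1000 widest intervals, and 67.9% to 69.0% of the other 420. In the IRF8KO P9 libraries it was 38.5% to 53.8% of the 13 and 70.5% to 71.9% of the 420. A lower share of the 13 was not limited to the knockout: it was 30.8% against 51.4% to 54.5% in IRF8KO P14, 23.1% to 46.2% against 46.9% to 49.3% in WT at 10 months and 15.4% to 23.1% against 39.3% to 47.1% in X04 negative microglia. In X04 positive microglia it was 15.4% to 23.1% against 26.7% to 26.9%. Of the 13, 1 passed the P9 test and was narrower. This was the domain assigned to Egfl6, in which the listed CpG-poor start is that of Gm1720. The Casp1 domain, of 1396 and 1315 bp in WT P14, measured 786 and 1185 bp in WT P9 and 1020, 1000 and 1229 bp in IRF8KO P9, so its groups overlapped.

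The domains at list genes varied in how far they held outside WT P14. Bhlhe41 was a single interval of 1648 and 1642 bp in WT P14 and was split in all 13 other libraries, at 765 and 867 bp in WT P9, 636, 934 and 936 bp in IRF8KO P9, 613 and 1219 bp in IRF8KO P14 and 544 to 854 bp at 10 months. Ch25h measured 1378 and 1351 bp in WT P9 and 707, 798 and 1755 bp in IRF8KO P9, which overlapped. At 10 months it was 535 and 353 bp in WT, 343 and 503 bp in X04 negative and 0 and 416 bp in X04 positive. Fcgr3 was 1774 and 1340 bp in WT P9, 1362, 1236 and 1312 bp in IRF8KO P9 and 529 and 551 bp in IRF8KO P14. Smad7 stayed between 1117 and 1543 bp in every library except the X04 positive ones, where it was 400 and 918 bp.

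At 10 months no width difference was detected between X04 negative 5xFAD and WT microglia, with 2 libraries in each group. None of 610 domains passed the limma test in either direction, and none of all tested intervals did (0.0%). The outcome is therefore not particular to the domains and does not show that their widths were equal. The smallest adjusted p among domains was 0.353, and 65 domains (10.7%) had an unadjusted p under 0.05, against 10.0% of all intervals. The widths did not overlap in 139 domains (22.8%) that were narrower in X04 negative and in 75 (12.3%) that were wider, against 14.9% and 20.4% of all intervals.

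In X04 positive against X04 negative microglia the result turned on how the libraries were scaled. In deposited widths, 377 of 609 domains (61.9%) were narrower in both X04 positive libraries, against 68.9% of all intervals, and 20 (3.28%) were wider, against 2.37%. After centring, 15 domains were narrower (2.46%, against 22.4% of all intervals) and 62 wider (10.2%, against 3.67%), and of the 62 wider ones 27 had the lower mean width before centring. Without centring 95 were narrower and 2 wider, and with quantile normalization 0 passed, so no direction is drawn for the domains as a whole. All 15 narrower domains were also narrower before centring. The largest differences among them were at Calcrl (1329 and 514 bp in X04 negative, 0 and 0 bp in X04 positive, log2 difference −2.51), Zmiz1 (825 and 533 bp against 0 and 0 bp), Sall3 (407 and 651 bp against 0 and 0 bp), Mcub (1105 and 1216 bp against 194 and 191 bp) and Etv1 (1526 and 1627 bp against 319 and 334 bp). Dll1, Cdkn2a, Lpp, Commd3 and Arhgap32 followed, at −1.38 to −0.92. The wider domains with the largest difference after centring included Tcaf1 (580 and 632 bp against 1112 and 1159 bp), Usp34 (595 and 562 bp against 939 and 862 bp), Spats2 (385 and 173 bp against 875 and 505 bp), Kremen1 (563 and 578 bp against 1064 and 685 bp) and Chd7 (584 and 583 bp against 815 and 697 bp). In these 5 both X04 positive libraries were wider also in deposited bp, and with limma the adjusted p of all 77 domains that passed lay between 0.04 and 0.0498.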

How the data were processed

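Microglial ATAC-seq peak lists of 15 libraries in 7 groups were used, each called on its own library by the authors. Per the submitters' processing notes, bcl2fastq, Bowtie2, MACS2 2.2.7.1 and deepTools were used with mm10. The names of the deposited lists carry marks for trimming, duplicate and mitochondrial removal, Tn5 shifting, a p of 0.01 and a 300K limit. The deposited fold enrichment is a ratio at each summit, and the authors also deposited −log10 p and −log10 q and an integer score. The summit offset was deposited in bp. Rows with the same interval and different summits were merged into one interval, whose strength is its highest −log10 p. Read depth is unknown, so no counting interval is given.

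Reference intervals were all unique intervals of WT P14 replicate 1. Widths were compared with limma 3.58.1 in R 4.3.3 (trend, pseudocount 100 bp, overlap of at least 1 bp, tested where overlapped in at least 2 libraries), at an adjusted p of 0.05. Counts of domains whose groups do not overlap are descriptions, since exact permutation tests could reach no p below 0.1 for 3 against 2 libraries and 0.333 for 2 against 2. Python 3.11.15 and pandas 2.3.3 did the rest, and the limma step was tested on simulated data. Genes are the most overlapped protein-coding RefSeq gene body, or else the nearest within 100 kb. Starts come from RefSeq start windows of GRCm38.p6, listed for 17274 of 21631 protein-coding genes (79.9%). A boundary is an end of a gene body; gene bodies, exons and introns were not told apart further.

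Named genes were the 15 widest domains, up to 10 per direction past each test, Irf8, Sall1, the listed genes with a domain (at most 8 per list), the 5 most split in IRF8KO P9 and the 5 on each side of the width limit. Other genes, among them the persistent and CpG-poor domains and those with no partner, were chosen after their values were seen. Some results of genes and lists are not reported here. The members and lists were chosen with earlier results of these data known. No 2 lists were identical.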

Additional observations from a re-analysis of the deposited data

Results flagged for a closer look

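In deposited bp, the median domain width moved in opposite directions with genotype at the 2 ages. IRF8KO minus WT was 82.3 bp at P9, where all 3 IRF8KO medians lay above both WT medians. It was −360 bp at P14, where both IRF8KO medians lay below both WT medians. At P9 the median log2 difference over domains was 0.06 without centring, −0.07 with centring and −0.07 with quantile normalization. The P9 direction thus depended on the scaling. The difference between the ages was not tested. WT P14 chose the domains, and library strength was higher in IRF8KO than in WT at P9 and lower at P14. Its part was not tested.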

How the results depend on the processing

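For IRF8KO against WT at P9 (9 domains narrower, 13 wider), the count of wider ones was 28 without centring. Requiring an interval in every library gave 5 and 6, and covered length gave 3 narrower. Leaving out 1 library gave 4 to 16 narrower and 8 to 24 wider. For X04 positive against X04 negative (15 and 62), the counts were 95 and 2 without centring, 0 and 0 with quantile normalization, with a pseudocount of 300 bp and with an interval required in every library, and 1 and 327 without a filter. Centring on the 5000 widest intervals, an alternative chosen after seeing the data, gave 30 and 30. A pseudocount of 10 bp gave 111 wider and covered length 110 wider. Leaving out 1 library gave 0 to 8 narrower and 0 to 2 wider, the lone sample being assumed to vary like the others. X04 negative against WT gave 0 throughout. Taking the 500 or the 2000 widest intervals of each list gave 267 or 1318 domains. With the replicate number as a block, 0 domains were narrower and 0 wider in every comparison. Same-numbered libraries did not deviate together in width over the intervals (r from −0.0198 to −0.000945). This correlation cannot show whether a number marks a shared litter, day or batch, which the labels do not say. Of the 22 domains past the P9 test, 4 passed with covered length, 5 without WT P9 replicate 1 and 22 with quantile normalization. The causes were not tested. Unknown depth limits any comparison of widths between libraries.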

Other observations

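The domains were spread over all chromosomes. Chromosome 18 held 4.92% of the domains and 3.16% of all intervals, chromosome 3 held 7.38% and 5.08%, and chromosome 6 held 3.28% and 5.44%. In the median domain, the second strongest summit had 0.515 times the −log10 p of the strongest. The mean number of a library's summits inside the limits of a domain was 4.04 and 4.13 in WT P9 and 4.03 to 4.21 in IRF8KO P9. It was 3.57 and 3.54 in IRF8KO P14, and 2.26 and 2.23 in X04 positive microglia. The 24 domains that stayed among the widest in all 13 other libraries had a median −log10 p of 189 in WT P14 replicate 1, and the 17 that were so in none had 102.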
